A study of Homo sapiens with 6 samples.

Results

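The BCL2 family of apoptosis regulators was followed through the depletion of MMP9, a secreted gelatinase, in the established melanoma line A375, whose growth is driven by mutant BRAF. The members were 10 genes chosen by name, BCL2, BCL2L1, MCL1, BCL2L11, BAX, BAK1, BOK, BID, BIK and BMF, and all 10 had a row among the 18539 genes listed. The shMMP9 group holds 3 libraries of cells infected with a pLKO.1 lentivirus that encodes 1 short hairpin RNA against the MMP9 coding region, and the shControl group holds 3 libraries of cells described as mock-depleted. Cells of both groups grew in serum-containing medium and are lines kept under puromycin selection for 2 weeks. Whether the 3 libraries of a group are separate cultures is not stated, and their spread, on which every p-value rests, may therefore be technical. With 1 hairpin sequence, an effect of losing MMP9 and an effect of that hairpin on other transcripts cannot be told apart.

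Proteins of this family decide whether the outer mitochondrial membrane is breached during apoptosis. BAX, BAK1 and, by its own route, BOK form pores that let cytochrome c out, whereas BCL2, BCL2L1 (BCL-XL) and MCL1 hold the pore formers and their activators in check. The BH3-only proteins, here BID, BCL2L11 (BIM), BMF and BIK, sense stress and either occupy the protective proteins or switch on the pore formers. Melanoma cells are known to lean on MCL1 and BCL-XL for survival, and the MAPK pathway that BRAF drives is known to restrain BIM and BMF. Most control of these proteins acts on their splicing, stability and location, which gene counts do not show: long and short forms of BCL2L1, MCL1 and BCL2L11 are summed here.

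The libraries held 21854111 to 25895674 estimated reads in shMMP9 and 24319961 to 28005537 in shControl. Mitochondrially encoded genes took 0.617 to 0.708% of reads in shMMP9 and 1.64 to 1.79% in shControl, and the part of that difference in the results below was not tested. MMP9 had scaled counts of 16.2, 14.6 and 17.1 in shMMP9 replicates 1 to 3, against 26.1, 24.3 and 28.7 in shControl replicates 1 to 3, and the fit by limma gave -0.69 on the log2 scale (SE 0.0847, adjusted p = 1.25e-05), so the depletion was partial. Scaled counts are reads brought to a common upper quartile by the authors. Each log2 fold change compares shMMP9 with shControl after 1 is added to the scaled count, so changes of weakly expressed genes come out too small. Of the melanocyte lineage markers, SOX10 averaged 785 ± 40.6 in shMMP9 and 378 ± 18.4 in shControl, and S100B averaged 28.1 ± 1.35 in shMMP9 and 9.46 ± 0.715 in shControl (SD, n = 3 each). MITF stood at 27.7 ± 0.876 in shMMP9 and 35.5 ± 2.48 in shControl, while the pigment genes PMEL, MLANA and TYRP1 averaged 1.76 or less in both groups. TYR and DCT were not analysed here. For other cell types, 5 of 7 fibroblast markers were tested, of which 4 fell and 1 rose. COL1A1 averaged 3.15 in shMMP9 and 18.4 in shControl, whereas PDGFRA went the other way, at 5.46 and 2.16. The summed level of all 7 fibroblast markers was 26.96 to 29.9 in shMMP9 and 46.1 to 52.2 in shControl, with COL3A1 at 0.210 and 0.202 on average in these groups. That of 6 of 7 endothelial markers was 22.1 to 25.7 in shMMP9 and 55.9 to 64.8 in shControl, a difference carried by TIE1 at 4.56 and 49.9; the other 5 summed to 18.2 to 20.6 in shMMP9 and 9.29 to 11.5 in shControl, most of it from KDR at 16.1 and 6.44, and CDH5 was at 0.110 and 0.769. That of 3 of 7 keratinocyte markers was 127 to 136 in shMMP9 and 70.04 to 81.6 in shControl. Most of it came from KRT10 at 112 and 71.6. KRT14 also rose, at 19.7 in shMMP9 and 4.04 in shControl, whereas KRT5 went the other way, at 0.0367 and 0.370. The summed level of 3 of 7 leukocyte markers was 98.03 to 101 in shMMP9 and 114 to 135 in shControl. Most of it came from CD68 at 92.4 and 121. LYZ went the other way, at 6.83 in shMMP9 and 2.20 in shControl, and CD14 was at 0.662 and 0.450 with overlapping groups. PTPRC was not analysed here. The part of these lists in the results was not tested. In bulk RNA, fewer cells of a type and less RNA per cell cannot be told apart.

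Among the 10 members, 6 fell (BOK, BID, BIK, BCL2L1, BAX and BCL2), 2 rose (MCL1 and BMF), and BCL2L11 and BAK1 did not pass the test at an adjusted p of 0.05 (limma over 17194 tested genes). The background is high: 57.5% of tested genes passed, with 25% higher and 32.5% lower. The member count has to be read against that share. Without shMMP9 replicate 2 or 3, or shControl replicate 2 or 3, 1 member rose (MCL1), and without shMMP9 replicate 1, 5 fell. The median log2 fold change was -0.44 over the members and -0.05 over all tested genes. Groups did not overlap for 9 members, against 62.7% of tested genes. BOK lay lower than all but 2.48% of tested genes, BIK than all but 4.76% and BID than all but 6.19%.

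**Figure D1:**
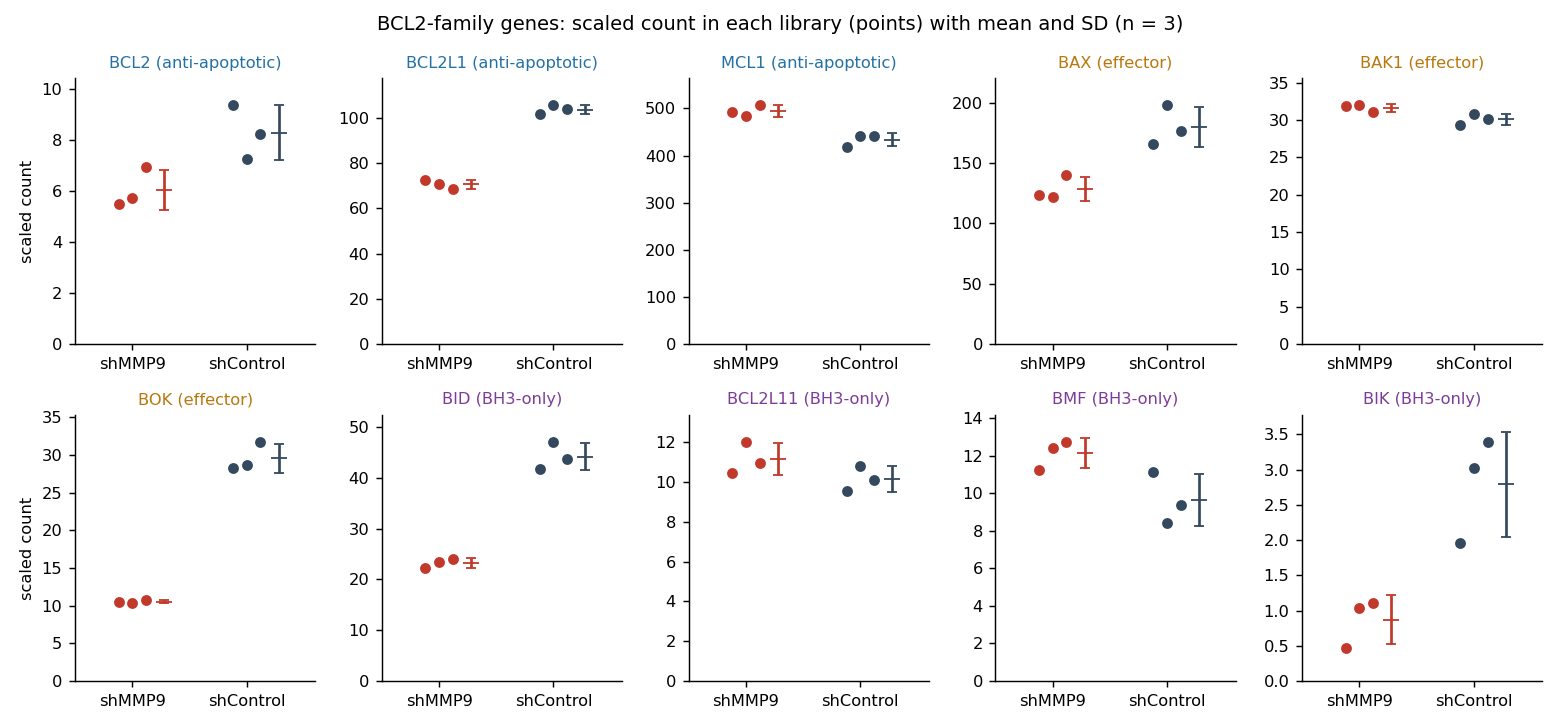
Scaled counts of the 10 BCL2-family genes in each library, with shMMP9 left of shControl in each panel and the mean and SD (n = 3) beside the points. BOK averaged 10.5 in shMMP9 and 29.6 in shControl, and BCL2L11 is the panel whose groups overlap.

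**Figure D2:**
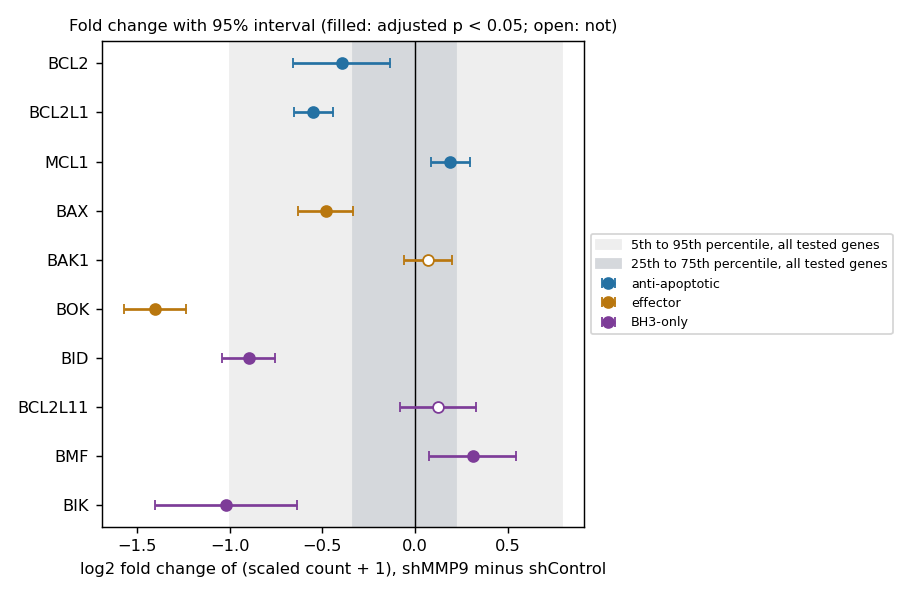
Log2 fold change of each gene (shMMP9 minus shControl) with its 95% interval from limma, coloured by role, over the 5th to 95th (light grey) and 25th to 75th (dark grey) percentiles of all 17194 tested genes. The widest interval is that of BIK, the member with the fewest reads.

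The protective members moved in opposite directions: MCL1, the most abundant of them, rose slightly while BCL2L1 and BCL2 fell. MCL1 (ENSG00000143384.12, chromosome 1, 150574551 to 150579738, minus strand, GRCh38) encodes a short-lived guardian that binds BAK1 and the BH3-only proteins. Its scaled count was 493, 484 and 507 in shMMP9, against 418, 441 and 442 in shControl. Every shMMP9 library lay above every shControl library, and the log2 fold change was 0.19 (SE 0.0480, adjusted p = 0.00419), a rise of 1.14-fold.

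BCL2L1 (ENSG00000171552.12, chromosome 20, 31664452 to 31723989, minus strand) encodes BCL-XL, which sequesters BAX as well as BH3-only proteins. It had scaled counts of 72.5, 70.6 and 68.3 in shMMP9, against 101, 106 and 104 in shControl. The groups stood well apart beside an SD of 2.09 in each, and the log2 fold change was -0.55 (SE 0.0485, adjusted p = 5.42e-07). An antisense gene, ABALON, overlaps 42.97% of the annotated BCL2L1 exon sequence, and without a stated strand setting the reads of the pair cannot be told apart. The row of ABALON itself held 4.34 ± 0.312 in shMMP9 and 3.39 ± 0.508 in shControl (SD, n = 3), an order of magnitude below BCL2L1, and did not pass the test (adjusted p = 0.0676).

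BCL2 (ENSG00000171791.12, chromosome 18, 63123346 to 63320128, minus strand), the founding member of the family, was weakly expressed. Its scaled counts were 5.51, 5.71 and 6.94 in shMMP9, which correspond to 164, 144 and 188 estimated reads, against 9.37, 7.25 and 8.25 in shControl. The groups did not overlap, although shMMP9 replicate 3 and shControl replicate 2 nearly met, and the log2 fold change was -0.40 (SE 0.122, adjusted p = 0.0133). The call was lost without shMMP9 replicate 1 (log2 fold change -0.34, adjusted p = 0.0593). BCL2 also lies on a chromosome whose genes were lower together: of 258 other tested genes on chromosome 18, 168 fell and 27 rose, with a median of -0.42, and of 12 within 2 megabases of BCL2, 8 fell and 2 rose, with a median of -0.46. The part of this in the BCL2 value was not tested. For the other 9 members, the median of their chromosome lay between -0.13 and -0.02 and that of genes within 2 megabases between -0.12 and 0.22.

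Per kilobase of exon, which allows genes to be compared, MCL1 provided 83.5, 83.6 and 84.6% of the summed level of these 3 protective genes in shMMP9 and 75.3, 75.7 and 76.0% in shControl. BCL2L1 provided 16.2, 16.1 and 15.01% in shMMP9 and 24.1, 23.9 and 23.5% in shControl. The remainder, BCL2, was below 1% in either group. The ratio of BCL2L1 to MCL1 scaled counts, from which library scaling cancels, was 0.147, 0.146 and 0.135 in shMMP9 and 0.242, 0.239 and 0.235 in shControl.

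Of the pore-forming members, BOK and BAX fell and BAK1 did not pass the test. BOK (ENSG00000176720.5, chromosome 2, 241551424 to 241574138, plus strand), whose protein is known to be held down by proteasomal degradation rather than by BCL-XL or MCL1, had the largest log2 fold change of the 10 genes with the pseudocount of 1, while BIK had the lower ratio of means and the larger change with limma-voom. Its scaled count was 10.51, 10.3 and 10.8 in shMMP9, against 28.2, 28.7 and 31.8 in shControl. Levels in shMMP9 were thus 0.356 times those of shControl, with almost no spread in shMMP9 (SD 0.239), and the log2 fold change was -1.40 (SE 0.0773, adjusted p = 4.84e-09). The 23 other tested genes within 2 megabases of BOK had a median of -0.09. The antisense gene BOK-AS1, not analysed here, overlaps 7.41% of its exon sequence.

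BAX (ENSG00000087088.19, chromosome 19, 48954815 to 48961798, plus strand) encodes the cytosolic pore former that moves to mitochondria when activated. It stood at 123, 122 and 140 in shMMP9, against 166, 198 and 176 in shControl. All shMMP9 libraries were below all shControl libraries, and the log2 fold change was -0.48 (SE 0.0693, adjusted p = 5.24e-05). BAK1 (ENSG00000030110.12, chromosome 6, 33572547 to 33580293, minus strand), the pore former that resides on mitochondria, had scaled counts of 31.9, 32.0 and 31.0 in shMMP9 and 29.3, 30.8 and 30.2 in shControl. The shMMP9 values all lay just above the shControl values, yet the log2 fold change of 0.07 did not pass the test (SE 0.0596, 95% interval -0.06 to 0.20, adjusted p = 0.328). A processed copy, BAK1P1, shares 12.3% of the distinct stretches of 50 bases in BAK1 transcripts, so some reads could fit both genes. BAK1P1 had no row among the genes listed, and how reads of the shared stretches were treated is not stated.

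The make-up of the pore-forming set also stood apart between the groups. On the same per-kilobase scale BOK made up 5.88, 5.81 and 5.52% of the 3 genes' summed level in shMMP9 and 11.9, 10.47 and 12.5% in shControl, and BAK1 made up 21.9, 22.1 and 19.5% in shMMP9 and 15.1, 13.8 and 14.6% in shControl. BAX supplied 72.1 to 75.02% in shMMP9 and 72.9 to 75.8% in shControl, ranges that overlap. The ratio of BAX to BAK1 scaled counts was 3.86, 3.81 and 4.51 in shMMP9 and 5.65, 6.43 and 5.84 in shControl.

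BAX and BOK are the pore formers that fell, and each has a single start in RefSeq (GRCh38.p14), so the 250 bases before that start are shown. Capitals mark matches, on either strand, to the E-box CACGTG and to the SP1 GC box GGGCGG in BAX, and to the NF-kB motif GGGNNTTCC and the same GC box in BOK. The windows are chr19:48954625-48954874 and chr2:241558495-241558744, both on the plus strand. These RefSeq starts differ from the GENCODE gene starts given above. The BAX window runs past the GENCODE start at 48954815, and the BOK window lies wholly inside the GENCODE gene, which starts at 241551424.
BAX: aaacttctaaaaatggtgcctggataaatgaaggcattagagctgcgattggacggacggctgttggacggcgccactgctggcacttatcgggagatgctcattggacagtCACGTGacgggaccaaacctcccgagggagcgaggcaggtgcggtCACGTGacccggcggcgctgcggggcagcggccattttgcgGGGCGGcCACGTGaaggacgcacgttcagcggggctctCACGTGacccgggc
BOK: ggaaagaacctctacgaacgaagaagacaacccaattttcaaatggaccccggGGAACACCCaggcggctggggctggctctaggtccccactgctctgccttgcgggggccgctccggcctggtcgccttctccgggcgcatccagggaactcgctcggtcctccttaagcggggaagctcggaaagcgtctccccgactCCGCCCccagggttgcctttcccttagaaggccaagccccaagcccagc

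The BAX window holds 4 E-boxes, which begin 138, 93, 45 and 14 bases before the RefSeq start. Those at 45 and 14 bases lie inside the GENCODE gene. Of 35116 RefSeq windows of 300 bases (250 before to 50 after a start), 7.26% hold at least 1 E-box and 5 hold at least 4. The BOK window holds 1 NF-kB match, found in 6.575% of windows, and no E-box. Each of these motifs was found in 2 members, with BID as the other member in both cases. GC boxes are common, with 44.95% of windows holding one, and 7 of the 8 members matched in the promoter table held at least 1 in any of their windows. As these 8 members have 14 windows, this count per gene cannot be set beside the share per window. No member window held the MITF M-box TCATGTG, the AP-1 motif TGANTCA or the TEAD motif GGAATG. These matches describe letters in a window and were not tied to any binding measurement.

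The BH3-only members split: BID and BIK fell, BMF rose by a smaller amount, and BCL2L11 did not pass the test. BID (ENSG00000015475.18, chromosome 22, 17734138 to 17774770, minus strand) links death receptors to mitochondria, since caspase-8 cuts it into its active form. Its scaled count was 22.2, 23.5 and 24.0 in shMMP9, against 41.7, 47.1 and 43.6 in shControl. The highest shMMP9 library lay far below the lowest shControl library, and the log2 fold change was -0.90 (SE 0.0662, adjusted p = 9.1e-08).

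BIK (ENSG00000100290.2, chromosome 22, 43110748 to 43129712, plus strand), which encodes a BH3-only protein of the endoplasmic reticulum, had the fewest reads of the 10 members, with 14, 26 and 30 estimated reads in shMMP9 and 55, 93 and 91 in shControl. As scaled counts these were 0.470, 1.03 and 1.11 in shMMP9, against 1.96, 3.02 and 3.40 in shControl. The groups did not overlap, and the ratio of means was 0.311. On the log2(scaled count + 1) scale the fold change was -1.02 (SE 0.178, adjusted p = 0.000273), a size that depends on the pseudocount at this level: it was -1.47 with a pseudocount of 0.25, -0.48 with one of 4 and -1.74 with limma-voom, and passed in each.

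BMF (ENSG00000104081.13, chromosome 15, 40087890 to 40108892, minus strand) encodes a protein that is tethered to the cytoskeleton and released on detachment. It had scaled counts of 11.2, 12.4 and 12.7 in shMMP9, against 11.2, 8.42 and 9.37 in shControl. The lowest shMMP9 and the highest shControl library nearly coincided, at 335 and 313 estimated reads, and the log2 fold change was 0.31 (SE 0.108, adjusted p = 0.0255). The call was lost without shMMP9 replicate 2 (adjusted p = 0.0713) or 3 (adjusted p = 0.0851) and without shControl replicate 2 (adjusted p = 0.108) or 3 (adjusted p = 0.0724). The antisense gene BMF-AS1, not analysed here, overlaps 8.46% of its exon sequence.

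BCL2L11 (ENSG00000153094.22, chromosome 2, 111119378 to 111168447, plus strand) encodes BIM, a potent activator of BAX and BAK1 that binds all protective members. Its scaled count was 10.48, 12.04 and 10.97 in shMMP9, against 9.55, 10.8 and 10.1 in shControl. The groups overlapped, and the log2 fold change of 0.12 had a 95% interval of -0.08 to 0.33 (adjusted p = 0.281), so a small rise or none both lie within it. The antisense-strand gene MIR4435-2HG overlaps 10.9% of its exon sequence and stood at 24.7 ± 0.724 in shMMP9 and 39.2 ± 2.37 in shControl (SD, n = 3, log2 fold change -0.64, adjusted p = 2.07e-06). Reads in the shared stretch cannot be assigned without a strand setting. BIM transcription is known to respond to FOXO factors, and the 250 bases before its RefSeq start (chr2:111120664-111120913, plus strand, GRCh38.p14) are shown with the FOXO motif GTAAACA and GC boxes in capitals. This window lies inside the GENCODE gene, which starts at 111119378.
BCL2L11: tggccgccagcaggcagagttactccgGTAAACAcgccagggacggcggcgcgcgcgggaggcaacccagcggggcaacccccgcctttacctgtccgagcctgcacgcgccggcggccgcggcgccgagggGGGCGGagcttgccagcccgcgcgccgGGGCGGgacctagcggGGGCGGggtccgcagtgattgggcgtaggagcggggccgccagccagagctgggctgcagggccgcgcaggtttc

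The FOXO match begins 223 bases before the start, and 3.42% of all windows hold one. Among members it was the only window with this motif. FOXO1 rose in shMMP9, at 11.8 ± 1.44 against 6.05 ± 0.489 in shControl (SD, n = 3, log2 fold change 0.85), and FOXO4 rose to 19.2 ± 1.97 in shMMP9, against 14.4 ± 0.902 in shControl (log2 fold change 0.38). FOXO3 had values of 29.9 ± 1.41 in shMMP9 and 34.3 ± 3.31 in shControl, with a fall that passed narrowly (adjusted p = 0.0485) and was lost under most alternatives. FOXO1 and FOXO4 lie outside the rule for named genes and were added after their values were seen.

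Levels per kilobase of annotated exon spanned more than 2 orders of magnitude. In shMMP9 the order was MCL1 (113 ± 2.68 scaled counts per kilobase), BAX (49.6 ± 3.86), BCL2L1 (21.3 ± 0.632), BAK1 (14.3 ± 0.245), BID (5.22 ± 0.210), BOK (3.89 ± 0.0881), BMF (2.23 ± 0.144), BCL2L11 (1.68 ± 0.119), BIK (0.913 ± 0.365) and BCL2 (0.515 ± 0.0662; SD, n = 3 each). Of the neighbours in this order, only BIK and BCL2 overlapped. In shControl the first 4 places were the same, with MCL1 at 99.2 ± 3.08, BAX at 69.6 ± 6.34, BCL2L1 at 31.2 ± 0.632 and BAK1 at 13.6 ± 0.328. They were followed by BOK at 10.9 ± 0.714, BID at 9.93 ± 0.611, BIK at 2.93 ± 0.782, BMF at 1.77 ± 0.255, BCL2L11 at 1.53 ± 0.0964 and BCL2 at 0.705 ± 0.0904. Libraries of neighbours overlapped in shControl for BOK and BID and for BMF and BCL2L11. BIK was thus 2 places lower in shMMP9 than in shControl. In shControl, however, its lowest library barely exceeded the highest library of BMF, at 2.057 and 2.048. BOK was below BID in shMMP9, while in shControl their libraries overlapped and gave no order. The order depends on the length used: with the longest coding transcript in place of all exons, a choice made after seeing the data, BAX stood first in shControl (133 ± 12.1) ahead of MCL1 (110 ± 3.42), and BID (17.7 ± 1.09) ahead of BAK1 (13.6 ± 0.328). On that length BID also stood above BOK in both groups, with BOK at 11.1 in shControl and BID and BOK at 9.31 and 3.97 in shMMP9. Libraries of BIK and BMF overlapped in shControl on that length, which gave them no order there.

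**Figure D3:**
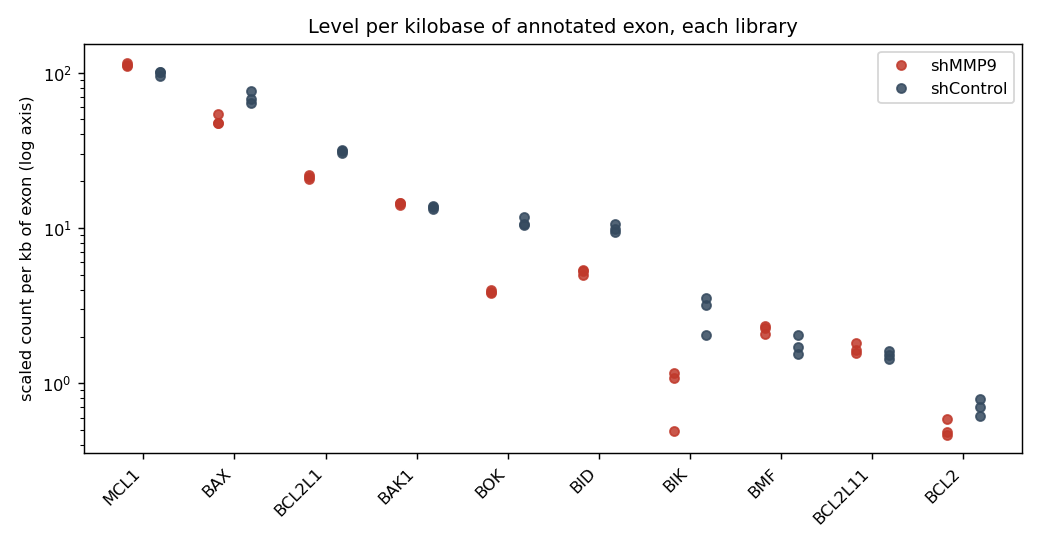
Scaled counts per kilobase of annotated exon on a log axis, 1 point per library, with shMMP9 left of shControl for each gene and genes in the order of their shControl mean. MCL1 and BAX lead in both groups, and the gap between groups is widest for BOK and BIK.

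Ratios that pair a death-promoting member with a protective one differed in direction with the pair. Of all 21 such pairs among the members, 11 were lower in every shMMP9 library than in every shControl library, 6 were higher in every shMMP9 library and 4 overlapped. The 21 ratios are built from 10 genes, so they are not independent, and each carries the change of its protective member. No share over other gene pairs was computed, and 62.7% of single tested genes had groups that did not overlap. With MCL1 as the protective member, 5 of 7 were lower and none was higher. BAX over MCL1 was 0.25005, 0.252 and 0.276 in shMMP9 and 0.396, 0.448 and 0.399 in shControl. With BCL2L1 as the protective member, 3 of 7 were lower (BOK, BID and BIK) and 3 were higher (BAK1, BCL2L11 and BMF), and the same genes were lower and higher over BCL2. BAX over BCL2 was 22.4, 21.4 and 20.1 in shMMP9 and 17.7, 27.3 and 21.3 in shControl, with shMMP9 inside the shControl range. BAX over BCL2L1 was 1.70, 1.73 and 2.05 in shMMP9 and 1.64, 1.88 and 1.70 in shControl. BCL2L11 over MCL1 was 0.0213, 0.0249 and 0.0216 in shMMP9 and 0.0228, 0.0245 and 0.0229 in shControl. These 3 ratios overlapped, as did BMF over MCL1. They are ratios of transcript counts not corrected for length, and are compared between groups only, with no test.

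**Figure D4:**
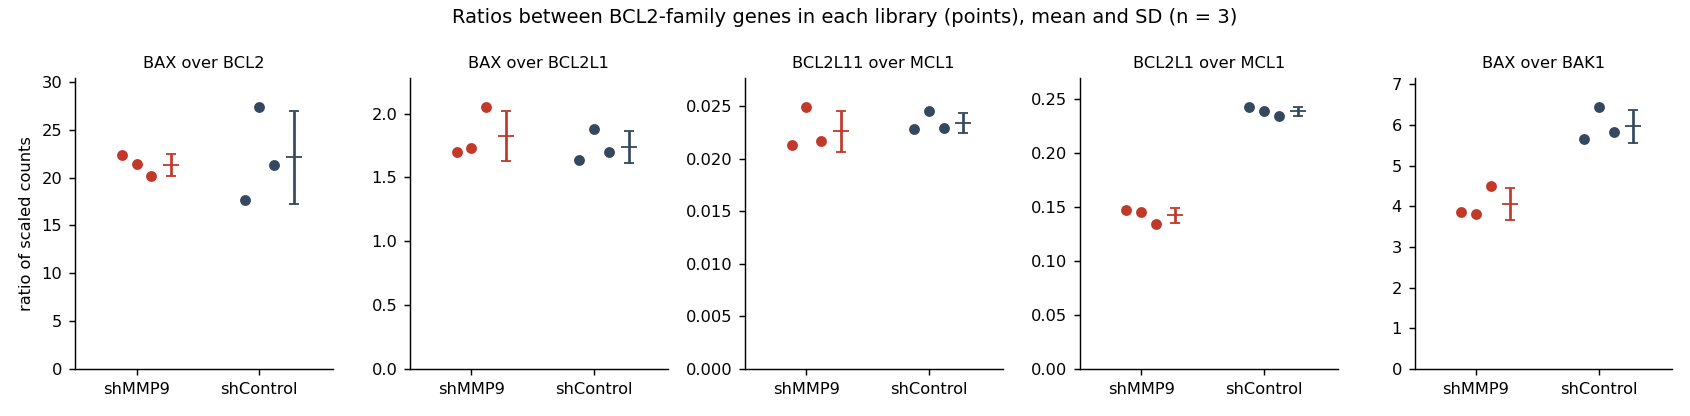
Ratios of scaled counts between pairs of BCL2-family genes in each library, shMMP9 left of shControl, with mean and SD (n = 3). The 2 groups separate for BCL2L1 over MCL1 and for BAX over BAK1, and overlap for the other 3 ratios.

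Counts in this and the following lists have to be read against all tested genes, of which 57.5% passed, 25% higher and 32.5% lower. The rest of the family was read from a list of 13 further BCL2-related genes, of which 11 had a row and 10 were tested: 3 rose and 7 fell, with a median of -0.34. The largest rise was that of BCL2A1 (BFL1), a protective member known as a target of MITF and NF-kB in melanoma, at 12.5 ± 1.38 in shMMP9 and 5.29 ± 0.566 in shControl (SD, n = 3, log2 fold change 1.098, SE 0.113, adjusted p = 2.42e-06). BCL2L2 (BCL-W), also protective, rose by 0.34 on the log2 scale, and BAD, a BH3-only protein silenced by survival kinases, rose by 0.20 (adjusted p = 0.0138, or 0.0575 without shMMP9 replicate 3). PMAIP1 (NOXA), a BH3-only partner of MCL1, fell and was at 21.5 ± 2.04 in shMMP9 and 47.4 ± 2.36 in shControl (log2 fold change -1.11, SE 0.0742, adjusted p = 3.51e-08). PMAIP1 also lies on chromosome 18, where 11 other tested genes within 2 megabases had a median of -0.71. BBC3 (PUMA), a BH3-only protein that binds all protective members, fell to 23.5 ± 0.94 in shMMP9, against 32.5 ± 2.56 in shControl (log2 fold change -0.45).

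HRK, a BH3-only gene best known from neurons, had a ratio of means of 0.206, against 0.453 for PMAIP1, but was near the detection limit, with 6, 10 and 8 estimated reads in shMMP9 and 48, 43 and 33 in shControl. Its log2 fold change was -0.91 (adjusted p = 5.43e-05) and, like that of BIK, depends on the pseudocount, from -0.34 to -2.27 over the alternatives. BNIP3 and BNIP3L, relatives that act in mitophagy, fell by 0.55 and 0.51 on the log2 scale. BCL2L12 and BCL2L13 fell by 0.24 and 0.17, and the call was lost for BCL2L12 without shMMP9 replicate 1 (adjusted p = 0.0553) and for BCL2L13 without any 1 of 4 libraries (adjusted p of 0.0640 to 0.0968), namely shMMP9 replicates 2 and 3 and shControl replicates 2 and 3, and under both other scalings (adjusted p of 0.113 and 0.116). BCL2L15 was below the limit for testing, with 4 to 14 estimated reads per library.

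Downstream of the mitochondrial step, 13 genes of the apoptosome and the caspases were tested: 2 rose, 4 fell and 7 did not pass, with a median of 0.01. APAF1, the scaffold that cytochrome c assembles into the apoptosome, rose to 31.8 ± 0.538 in shMMP9, against 25.5 ± 0.451 in shControl (SD, n = 3, log2 fold change 0.31, adjusted p = 0.000764). CYCS, cytochrome c itself, fell by 0.22 and DFFA, the inhibitor of the caspase-activated nuclease, by 0.47. The initiator CASP9 had a log2 fold change of 0.20 that did not pass (adjusted p = 0.0843), but did so with median-of-ratios scaling (adjusted p = 0.0358), with total-read scaling (adjusted p = 0.0323) and without shMMP9 replicate 1 (adjusted p = 0.0364). Of 5 tested inhibitors of apoptosis, BIRC2 and BIRC6, ubiquitin ligases that restrain death signalling, rose by 0.30 and 0.24, and none fell. XIAP, the direct caspase inhibitor, had a log2 fold change of -0.11 (adjusted p = 0.0707), and BIRC5 (survivin) one of -0.12 (adjusted p = 0.131), which passed without shControl replicate 1 (adjusted p = 0.00447). BIRC6 lost its call without shMMP9 replicate 1 (adjusted p = 0.0554).

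In the death receptor pathway, which feeds into BID, 3 of 11 tested genes rose and 4 fell. TNFRSF1A, the main TNF receptor, rose to 207 ± 1.17 in shMMP9, against 117 ± 9.88 in shControl (SD, n = 3, log2 fold change 0.82, adjusted p = 6.2e-08), and RIPK1, its adaptor kinase, rose by 0.60. FAS rose by 0.39, whereas TNFRSF10A, a TRAIL receptor, fell by 0.52. CFLAR, the decoy that blocks caspase-8, fell by 0.40. CASP8, the protease that cuts BID, had values of 29.2 ± 3.11 in shMMP9 and 33.2 ± 1.05 in shControl, with overlapping groups (log2 fold change -0.18, adjusted p = 0.0528). It passed with the replicate block (adjusted p = 0.0415), with limma-voom (adjusted p = 0.0441) and without shMMP9 replicate 2 (adjusted p = 0.0104).

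Of 13 transcription factors known to act on BCL2-family genes, 6 rose and 5 fell, against 25% higher and 32.5% lower over all tested genes. TP73 rose by 1.24 on the log2 scale, E2F1 by 0.68 and STAT3 by 0.56. MYC, which primes cells for apoptosis, fell by 1.02, and MITF, which is known to activate BCL2 and BCL2A1 in pigment cells, fell by 0.34. Of these targets, BCL2 fell and BCL2A1 rose.

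Among 18 tested genes for protein partners and turnover of the family, 5 rose and 6 fell, with a median of -0.07. USP9X, a deubiquitinase that stabilises MCL1, had the smallest adjusted p and fell to 92.5 ± 1.88 in shMMP9, against 143 ± 8.66 in shControl (SD, n = 3, log2 fold change -0.62). The calcium channel gene ITPR2, whose family BCL2 and BOK bind at the endoplasmic reticulum, rose by 0.81, to 36.2 in shMMP9 against 20.2 in shControl. Of its relatives, ITPR1 rose by 0.45. ITPR3, the most abundant of these genes, fell by 0.20, to 165 in shMMP9 against 191 in shControl. ITPR1 and ITPR3 lie outside the rule for named genes and were added after their values were seen. VDAC1, a channel of the outer mitochondrial membrane, fell by 0.33, and DYNLL2, the dynein light chain to which BMF binds, rose by 0.33.

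**Figure D5:**
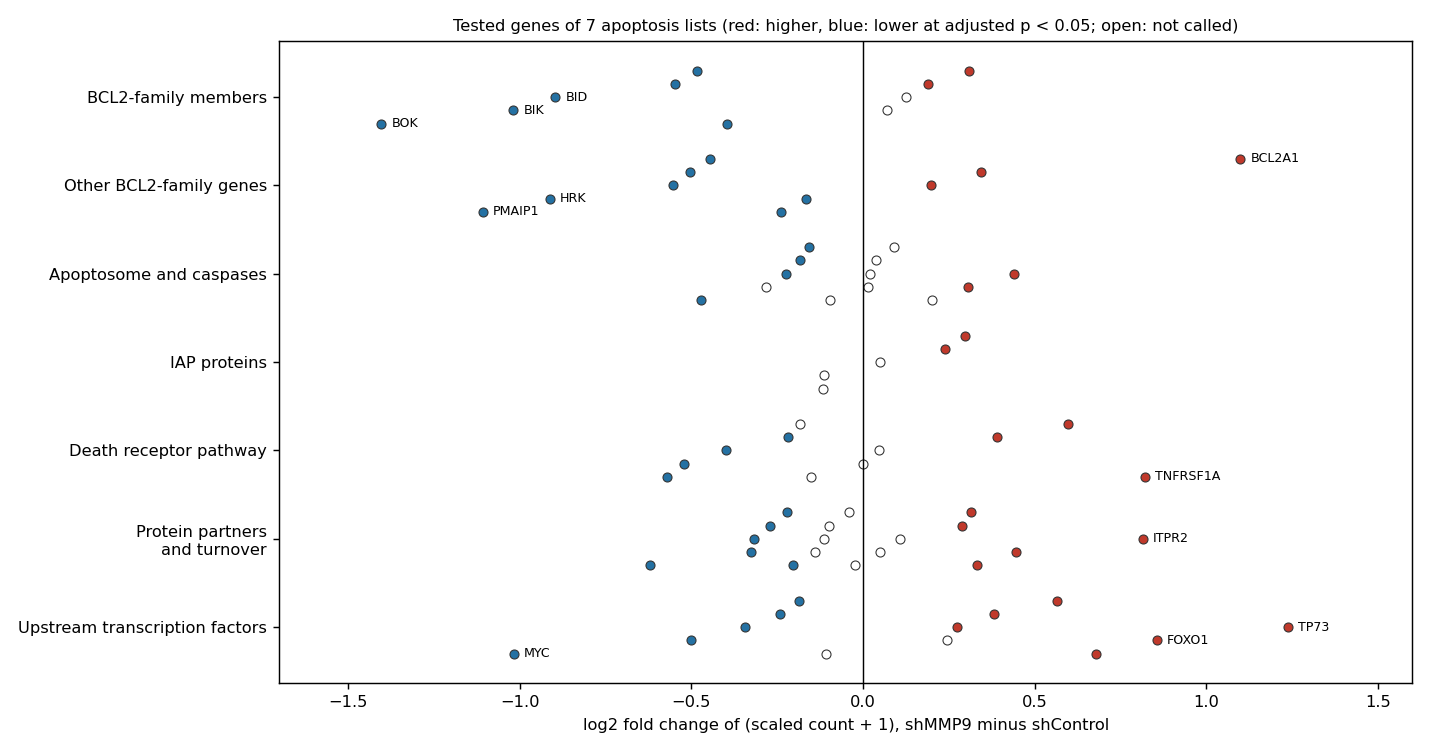
Log2 fold change (shMMP9 minus shControl) of every tested gene in the 10 BCL2-family members and 6 further apoptosis lists, with names for changes beyond 0.75 in either direction. Each list holds called genes in both directions, except the inhibitors of apoptosis, where 2 of 5 rose and none fell. Over all tested genes, 57.5% passed, 25% higher and 32.5% lower.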

How the data were processed

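Total RNA of 6 A375 libraries was measured by RNA-seq. STAR 2.6.1d, Partek and the hg38 build are given in the submitters' processing notes; no source used here gives the counting method, annotation, strand setting or filter. The authors deposited log2 values that, from the values themselves, are log2(scaled count + 1) at a common upper quartile (45.3 to 45.4 in each library). The value of 1 read was found as the step of low values; 64.5 to 67.8% of values per library were whole reads within 0.01, and the others are fractions, so reads are called estimated. As these are no raw counts, limma 3.58.1 (R 4.3.3, variance trend) was run on the deposited values for genes with 10 estimated reads at median depth in 3 libraries and 15 in total, leaving 17194 tested genes and 1345 untested. Adjusted p is Benjamini-Hochberg's, taken over the tested genes. The method was tested on simulated data in which few genes changed, all of them above the median level. That test does not cover weakly expressed members or a background as wide as the one found here. Replicates differed by 2.51 to 4.74 in chi-square per gene in shMMP9 and by 4.02 to 14.2 in shControl, more than sampling noise. The largest values were those of shControl replicate 1 against replicates 2 and 3, at 14.2 and 9.72. Each library counted as 1 sample, although such a spread does not show that the libraries are separate cultures. Symbols of 23 genes had become dates and were left unnamed. Symbols were matched to GENCODE 29 (GRCh38) for coordinates, exon lengths and overlaps; promoter windows come from RefSeq (GRCh38.p14), where 8 of 10 members matched 14 windows. Promoters were searched on both strands for 9 motifs. The members and lists were chosen with earlier results of these data known. Named genes are all members, MMP9, the further BCL2-family list, up to 4 genes of each other apoptosis list with the smallest adjusted p, and APAF1, CASP9, XIAP, CASP8, CFLAR, FOXO3 and MITF; some genes of this rule are not reported here. Tried as alternatives were a replicate block, leaving out 1 library at a time, 2 other scalings, no filter, limma-voom on estimated reads, pseudocounts of 0.25 and 4, no variance trend and a threshold of 0.01. Figures were drawn with matplotlib 3.10.9.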

Additional observations from a re-analysis of the deposited data

How the results depend on the processing

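Of 150 member values under the alternatives, 143 kept both direction and call, and none changed direction. The exceptions were BCL2, lost without shMMP9 replicate 1, and BMF, lost without 4 libraries. With 1 library left out, the log2 fold change of BCL2 ran from -0.49 to -0.31, that of BMF from 0.22 to 0.41, and the number of members that rose from 1 to 2. At a threshold of 0.01, BCL2 (-0.40) and BMF (0.31) lost their calls, which left 1 member higher and 5 lower. Under median-of-ratios scaling 4949 genes rose and 4946 fell, and under total-read scaling 4988 and 4898, against 4304 and 5584 with the deposited scaling; the 6 falls and 2 rises among members were the same genes under both. Deviations from the group mean had correlations of 0.04, -0.13 and -0.03 between same-numbered libraries of the groups. Those between other libraries of the groups ran from -0.12 to 0.17. With 3 libraries per group, these values cannot decide whether same-numbered libraries were prepared together. With the replicate block 2 members rose and 6 fell, and 4211 and 5486 genes did. Depth limits BIK most among the members, at 14 to 93 estimated reads per library, and in the further lists HRK, at 6 to 48, and BCL2L15, at 4 to 14.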
